A study of Mus musculus with 4 samples.

Results

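The 39 genes described here were chosen by their role: glucose uptake, the enzymes of glycolysis and their isozymes, the handling of pyruvate and lactate, and the pentose phosphate pathway. They were 39 of the 14193 genes with a row in the tables, and 36 of them were listed under their own symbol. Pkm was listed as Pkm2, Mpc1 as Brp44l and Mpc2 as Brp44, and these were matched by RefSeq accession. Glycolysis splits glucose into pyruvate in the cytosol, and the pentose phosphate pathway branches off after the first phosphorylation to make NADPH and ribose for nucleotides. Pyruvate is either reduced to lactate by lactate dehydrogenase or carried into mitochondria and oxidised by pyruvate dehydrogenase, which pyruvate dehydrogenase kinases hold back. Activated conventional T cells raise glycolysis, whereas regulatory T (Treg) cells, which carry the factor Foxp3 and dampen immunity, are described as leaning more on mitochondrial oxidation.

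RNA-seq values came from splenic Treg cells of mice of the C57BL/6 strain. There were 2 wild-type (WT) libraries and 2 libraries in which Nsd2 had been deleted conditionally in Treg cells (cKO). Nsd2 encodes a methyltransferase that dimethylates histone H3 at lysine 36. Each library pooled RNA from at least 3 mice, and the labels give neither the Cre driver nor the age or sex of the mice. P-values therefore measure the spread between pools of RNA, part of which may be technical. A value is given in RPKM, reads scaled to transcript length and to the reads of the library, so genes can be set side by side within a library.

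Nsd2 itself stood at 6.82 and 7.44 RPKM in WT replicates 1 and 2 and at 3.46 and 4.27 RPKM in cKO replicates 1 and 2, and the labels do not say which exons were removed. Depth estimated from the steps between low values was 19065000 to 21220000 reads per library. Foxp3 and the other markers of Treg cells were present in all 4 libraries, with a summed level of 1727 to 1800 RPKM over 15 genes. Markers of other cells were also detected. The summed level of 9 genes of B cells was 33.1 to 42.96 RPKM, with Cd74 at 24.98 to 30.7 RPKM, and that of 9 genes of CD8 T and NK cells was 27.5 to 36.6 RPKM. The summed level of 18 genes of myeloid and dendritic cells was 57.2 to 83.2 RPKM, most of it from Cst3 (41.5 to 45.6 RPKM), which other cells also express. That of 9 genes of erythroid cells and platelets was 8.82 to 46.9 RPKM. Both sums were highest in cKO replicate 1, where C1qa, a macrophage gene, stood at 6.06 RPKM against 1.39 to 2.27 in the other 3 libraries.

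The 6 highest of these genes, Ldha, Pkm, Gpi1, Aldoa, Eno1 and Gapdh, ranked 152 to 383 by mean among the 10688 genes tested. Of the 39 genes, 28 had a mean of at least 10 RPKM, 6 had a mean of at least 100 RPKM, and 1, the myeloid-type hexokinase Hk3, was below 1 RPKM. Their summed level was 1649 and 1537 RPKM in WT replicates 1 and 2 and 1673 and 1593 RPKM in cKO replicates 1 and 2. Both libraries numbered 2 thus had a lower sum than both numbered 1, and the 2 genotypes overlapped.

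**Figure D1:**
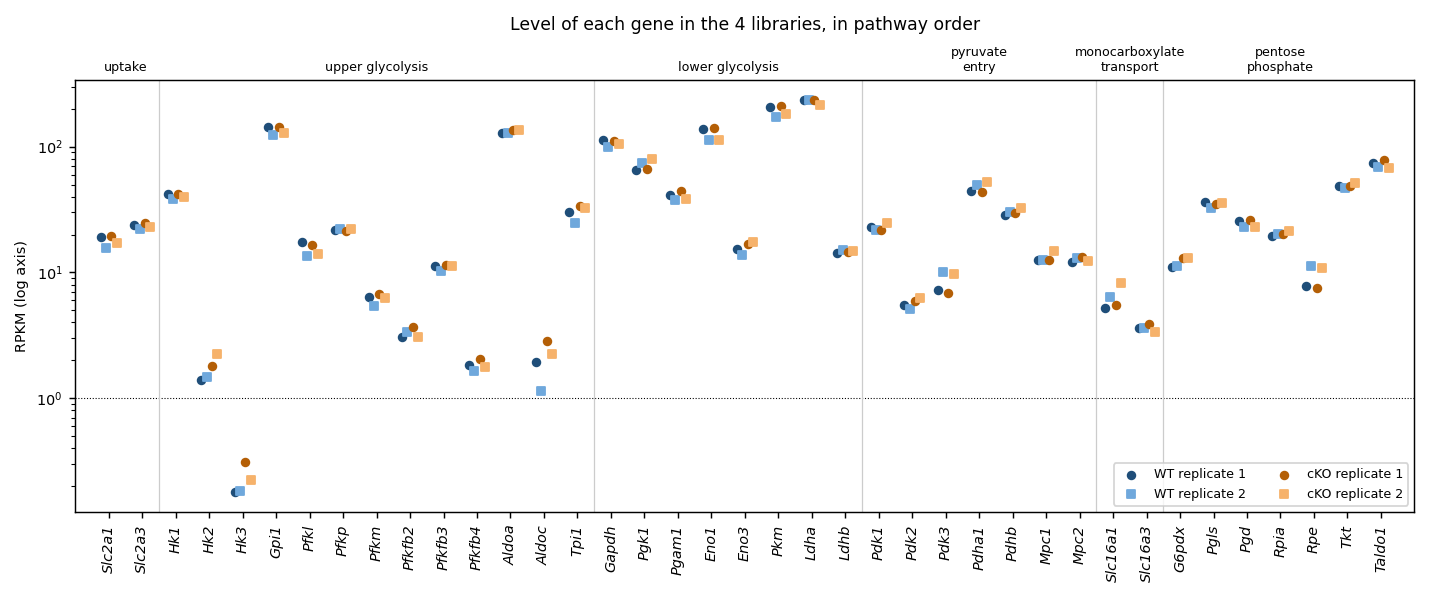
RPKM on a log axis (vertical) of the 39 genes in pathway order (horizontal), with 1 point per library: circles for replicate 1 and squares for replicate 2, blue for WT and orange for cKO. The points of most genes lie close together, from Hk3 at 0.178 to 0.312 RPKM up to Ldha at 215 to 235 RPKM; the dotted line marks 1 RPKM.

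Promoters were examined because the transcripts of glycolysis are known targets of hypoxia-inducible factor and Myc, which bind short motifs. RefSeq promoters (GRCm38.p6) were matched for 38 of the 39 genes, all but Slc2a3, and the 250 bases before the start site were searched on both strands for ACGTG and GCGTG, the core letters of hypoxia response elements, and for CACGTG, the E-box that Myc binds and that contains the first of these. Either core was found in 34 of 38 promoters (89.5%). It was held by 57.4% of 10416 listed promoters of genes tested and by 38.6% of all promoters, at the same length. Each of the 38 was 1 start per gene, the one nearest the measured transcript, and Hk3 among them was not tested. The background counted every listed start of a gene and lacked genes without one, such as Slc2a3. The shares were thus not counted alike. CACGTG was found in 4 of 38 (10.5%), where 8.7% of the listed promoters of genes tested held it. The median GC content was 61.6% for the 38 promoters, 60.0% for the listed promoters of genes tested and 52.4% for all promoters. These matches are letters and not sites shown to be bound. Of genes higher in both libraries numbered 1 than in both numbered 2, 10 of 12 promoters held a core, and of genes lower there 9 of 10 did. The 4 promoters below are shown for the most abundant gene (Ldha), a gene high in the libraries numbered 1 (Gpi1), one low there (Pgk1) and the gene with the largest genotype ratio (Aldoc). Capitals mark ACGTG or GCGTG on either strand, and each runs from 250 bases before the start site to the base before it, on the gene's own strand. Ldha lies at chr7:46845554-46845803 (plus strand), Gpi1 at chr7:34230337-34230586 (minus strand), Pgk1 at chrX:106186850-106187099 (plus strand) and Aldoc at chr11:78323948-78324197 (plus strand). None overlaps an annotated UTR in GENCODE M21, the Gpi1 window overlaps an exon of the long non-coding RNA Gm12762, and the Aldoc window an exon of a non-coding Aldoc transcript.
Ldha: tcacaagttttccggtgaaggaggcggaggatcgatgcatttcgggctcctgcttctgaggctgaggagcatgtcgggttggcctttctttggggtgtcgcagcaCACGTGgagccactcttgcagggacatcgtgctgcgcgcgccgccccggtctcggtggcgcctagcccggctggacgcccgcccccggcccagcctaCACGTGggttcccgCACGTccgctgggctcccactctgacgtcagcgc
Gpi1: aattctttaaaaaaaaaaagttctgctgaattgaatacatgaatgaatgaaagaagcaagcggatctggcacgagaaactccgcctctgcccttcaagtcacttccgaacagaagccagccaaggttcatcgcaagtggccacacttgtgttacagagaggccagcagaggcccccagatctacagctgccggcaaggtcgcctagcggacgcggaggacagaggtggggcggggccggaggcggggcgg
Pgk1: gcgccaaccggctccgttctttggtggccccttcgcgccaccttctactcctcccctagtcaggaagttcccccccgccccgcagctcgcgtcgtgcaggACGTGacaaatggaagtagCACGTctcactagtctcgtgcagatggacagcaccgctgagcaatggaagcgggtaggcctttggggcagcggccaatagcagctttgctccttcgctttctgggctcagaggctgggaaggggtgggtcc
Aldoc: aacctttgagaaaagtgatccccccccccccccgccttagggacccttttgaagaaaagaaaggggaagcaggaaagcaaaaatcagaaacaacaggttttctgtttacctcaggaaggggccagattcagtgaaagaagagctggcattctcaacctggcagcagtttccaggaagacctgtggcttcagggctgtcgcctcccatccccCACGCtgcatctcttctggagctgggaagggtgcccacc
Ldha held 3 such places, full E-boxes among them, Pgk1 held 2, Aldoc held 1 and Gpi1 held none.

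Expression did not differ detectably between genotypes for any of these genes. Of the 38 genes averaging 1 RPKM or more, limma over all 10688 genes tested called 0 at an adjusted p under 0.05, and 0 also had an unadjusted p under 0.05. The background was 0% of all genes called and 3.11% with an unadjusted p under 0.05. Nsd2, the deleted gene, was not called either, with a cKO to WT ratio of 0.542 (limma, unadjusted p = 0.00305, adjusted p = 0.9998). With 2 libraries per group, the absence of calls therefore does not show that levels were equal. In 29 of the 38 genes the log2 fold change (cKO minus WT, on the log2(RPKM + 1) scale, which understates the change of low genes) was smaller than 0.1 in size. The 95% interval of the fold change took in 0 for all 38 genes. On the same RPKM + 1 scale it lay within a 1.5-fold change in either direction for 32 of them and within a 2-fold change for 37. For most of the pathway larger differences on this scale thus lay outside the unadjusted interval. Low genes are bounded less tightly in RPKM itself: with a pseudocount of 0.1 the standard error of Hk2 was 0.226, against 0.150 here. These counts and intervals come from a fit that leaves out the replicate number. With that number as a block, limma called 0 of the 38 genes. There 5 of them had an unadjusted p under 0.05, as had 1638 of all 10688 genes. In cells measured in bulk, fewer cells of a kind and less RNA per cell cannot be told apart.

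The log2 fold change was above 0 for 31 of the 38 genes (81.6%), where 59.2% of all genes were above 0. The median was 0.06 for the 38 genes and 0.03 for all genes. With median-of-ratios scaling of the libraries, 22 of the 38 genes and 45.4% of all genes were above 0, and the medians were 0.01 and -0.01. The 2 cKO values both exceeded the 2 WT values for 8 genes (21.1%, against 17.4% of all genes tested) and both fell short of them for 1 gene (2.63%, against 9.06% of all genes tested). The 8 genes were Hk2, Pfkfb3, Aldoa, Aldoc, Tpi1, Eno3, Pdk2 and G6pdx, and the 1 gene was Ldha.

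**Figure D2:**
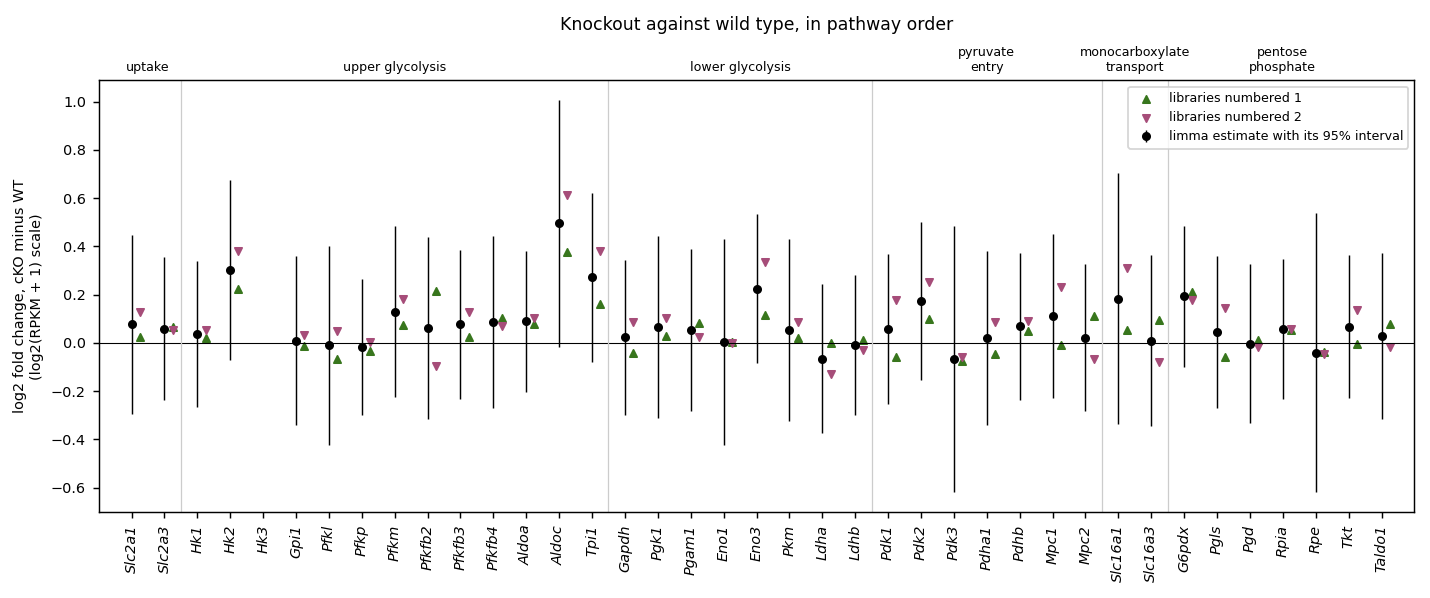
Log2 fold change of cKO minus WT (vertical, log2(RPKM + 1) scale) for each gene in pathway order (horizontal), with the limma estimate and its 95% interval in black and the difference within the libraries numbered 1 (green triangles) and numbered 2 (pink triangles). Every interval crosses 0, and Aldoc (0.50), Hk2 (0.30), Tpi1 (0.27) and Eno3 (0.23) stand highest; Hk3 was not tested.

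Glucose enters T cells through the transporters encoded by Slc2a1 (Glut1) and Slc2a3 (Glut3). Slc2a1 stood at 19.1 and 15.5 RPKM for WT, next to 19.4 and 17.1 RPKM for cKO (replicates 1 and 2, in that order here and below). Slc2a3 was at 23.7 and 22.3 RPKM in the WT pools, against 24.8 and 23.2 RPKM in the cKO pools. Slc2a3 was the higher of the pair in all 4 libraries and made up 55.4% to 59.0% of their sum. Both genes were higher in the libraries numbered 1 than in those numbered 2 of either genotype, and the genotypes overlapped.

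Hexokinase traps glucose as glucose 6-phosphate, and Hk1 was the main form. Hk1 was at 41.7 and 38.6 RPKM for WT, next to 42.3 and 40.1 RPKM for cKO. Hk2, the inducible form that activated T cells raise, stood at 1.39 and 1.48 RPKM in the WT pools, against 1.79 and 2.23 RPKM in the cKO pools (GRCm38 chromosome 6, 82725025 to 82774454). Both cKO libraries were above both WT libraries, with means of 1.44 ± 0.0590 and 2.01 ± 0.307 RPKM (SD, n = 2 each), a ratio of 1.40. For Hk2 the log2 fold change was 0.30 with a standard error of 0.15 (limma, unadjusted p = 0.0941, adjusted p = 0.9998). Hk3 stood at 0.178 and 0.181 RPKM for WT, next to 0.312 and 0.223 RPKM for cKO, about 11.1 to 19.1 reads per library, too few to compare. Its highest value was in cKO replicate 1, the library with the highest summed level of myeloid markers, and the part of such cells in it was not tested. The share of Hk1 in the sum of Hk1 and Hk2 was 96.8% and 96.3% in WT and 95.9% and 94.7% in cKO.

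Glucose phosphate isomerase, encoded by Gpi1 (chromosome 7, 34201327 to 34230336), was at 144 and 125 RPKM in the WT pools, against 143 and 127 RPKM in the cKO pools. The libraries numbered 1 were high and those numbered 2 low in both genotypes, and the ratio of the cKO mean to the WT mean was 1.01.

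Phosphofructokinase 1 commits sugar to glycolysis, and its subunits were all 3 expressed. Pfkp, the platelet-type subunit, stood at 21.9 and 22.1 RPKM for WT, next to 21.4 and 22.1 RPKM for cKO. The liver-type subunit Pfkl was at 17.4 and 13.5 RPKM in the WT pools, against 16.6 and 14.0 RPKM in the cKO pools. Pfkm, the muscle-type subunit, was at 6.35 and 5.38 RPKM for WT, next to 6.74 and 6.24 RPKM for cKO. Pfkp took the largest share of their sum in all 4 libraries (47.8% to 53.8%), ahead of Pfkl (33.0% to 38.1%) and Pfkm (13.1% to 15.1%). The share of Pfkm was 13.9% and 13.1% in WT and 15.1% and 14.7% in cKO, so the groups did not overlap, with a difference of 1.40 percentage points.

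The Pfkfb enzymes make and remove fructose 2,6-bisphosphate, an activator of phosphofructokinase 1. Pfkfb3, whose product favours the activator, was the main form at 11.2 and 10.2 RPKM in the WT pools, against 11.4 and 11.3 RPKM in the cKO pools. It made up 66.5% to 69.9% of the family. Pfkfb2 was at 3.05 and 3.35 RPKM for WT, next to 3.71 and 3.08 RPKM for cKO, and 65.7% of its transcript recurred in another annotated gene. Pfkfb4 was at 1.83 and 1.65 RPKM in the WT pools, against 2.04 and 1.78 RPKM in the cKO pools. Pfkfb3 was higher in cKO by a narrow margin without overlap, since WT replicate 1 (11.2 RPKM) and cKO replicate 2 (11.3 RPKM) nearly met.

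Aldolase splits fructose 1,6-bisphosphate, and nearly all of its transcript was Aldoa. Aldoa (chromosome 7, 126795234 to 126800994) was at 129 and 127 RPKM for WT, next to 136 and 137 RPKM for cKO, a ratio of 1.06. Aldoc, the brain-type isozyme (chromosome 11, 78323073 to 78327781), stood at 1.96 and 1.14 RPKM in the WT pools, against 2.84 and 2.27 RPKM in the cKO pools. The Aldoc means were 1.55 ± 0.581 and 2.55 ± 0.408 RPKM (SD, n = 2 each), a ratio of 1.65 that was the largest among the 38 genes tested. For Aldoc the log2 fold change was 0.50 with a standard error of 0.21 and a 95% interval from -0.02 to 1.01 (limma, unadjusted p = 0.0555, adjusted p = 0.9998). Without WT replicate 2 the log2 fold change of Aldoc was 0.26, below that of Hk2 (0.33), and it ran from 0.26 to 0.73 with 1 library left out. These values rested on about 36.9 to 92.1 reads per library, and WT replicate 2 was the low one. Aldoc took 0.884% to 2.04% of the aldolase sum.

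Triose phosphate isomerase, encoded by Tpi1 (chromosome 6, 124810586 to 124814158), had the largest ratio among the 28 more abundant genes, those averaging 10 RPKM or more. It stood at 29.96 and 24.7 RPKM for WT, next to 33.6 and 32.4 RPKM for cKO, with means of 27.3 ± 3.75 and 33.0 ± 0.847 RPKM (SD, n = 2 each) and a ratio of 1.21. WT replicate 2 was the low library, and both cKO libraries were above both WT libraries. For Tpi1 the log2 fold change was 0.27 with a standard error of 0.14 (limma, unadjusted p = 0.105, adjusted p = 0.9998). It was 0.16 within the libraries numbered 1 and 0.38 within those numbered 2. Without WT replicate 2 it was 0.14, below G6pdx (0.21) and Eno3 (0.15), and it ran from 0.14 to 0.41 with 1 library left out.

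In the lower part of glycolysis, Gapdh, the enzyme that makes the first NADH of the pathway, was at 113 and 99.4 RPKM in the WT pools, against 110 and 106 RPKM in the cKO pools. Pgk1, the phosphoglycerate kinase that yields ATP, was at 65.0 and 74.5 RPKM for WT, next to 66.3 and 80.1 RPKM for cKO. Pgam1, the phosphoglycerate mutase, was at 41.5 and 37.6 RPKM in the WT pools, against 44.0 and 38.3 RPKM in the cKO pools. The genotypes overlapped for all 3 genes, with ratios of 1.01, 1.05 and 1.04. Pgk1 was low in the libraries numbered 1 and high in those numbered 2, the reverse of Gapdh and Pgam1.

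Enolase values followed the replicate number more than the genotype for the main form. Eno1, the ubiquitous form (chromosome 4, 150236708 to 150248879), stood at 139 and 113 RPKM for WT, next to 140 and 113 RPKM for cKO. The libraries with the same number were nearly alike, and the log2 fold change was 0.0055 within number 1 and 0.0012 within number 2. Eno3, the muscle-type enolase (chromosome 11, 70653125 to 70662513), was at 15.4 and 13.7 RPKM in the WT pools, against 16.7 and 17.6 RPKM in the cKO pools, a ratio of 1.18. For Eno3 the log2 fold change was 0.23 with a standard error of 0.12 (limma, unadjusted p = 0.123, adjusted p = 0.9998). Eno1 made up 86.5% to 90.1% of the sum of Eno1 and Eno3, from which Eno2 was left out.

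Pkm, a pyruvate kinase gene (chromosome 9, 59656576 to 59679372), was at 206 and 172 RPKM for WT, next to 210 and 183 RPKM for cKO. The files gave 1 transcript row for Pkm, so its 2 splice forms were not separated. Ldha, the lactate dehydrogenase subunit that favours lactate formation (chromosome 7, 46842274 to 46855627), was the most abundant of the 39 genes and ranked 152 of 10688 genes tested by mean. It stood at 234 and 235 RPKM in the WT pools, against 234 and 215 RPKM in the cKO pools. Its groups did not overlap only because WT replicate 1 (233.9 RPKM) lay just above cKO replicate 1 (233.7 RPKM). In a second transcript row of Ldha these 2 libraries were in the other order, at 196.5 and 196.8 RPKM. Ldhb was at 14.3 to 15.1 RPKM in the 4 libraries. The share of Ldha in the sum of the pair was 93.5% to 94.2%.

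For the handling of pyruvate, limma called 0 of 7 genes between genotypes, and none had an unadjusted p under 0.05. Pdk1, a kinase that inhibits pyruvate dehydrogenase and a known target of hypoxia-inducible factor, was at 22.8 and 21.7 RPKM for WT, next to 21.9 and 24.7 RPKM for cKO. Pdk3 stood at 7.23 and 10.1 RPKM in the WT pools, against 6.81 and 9.69 RPKM in the cKO pools, low in the libraries numbered 1 and high in those numbered 2. Pdk2 was at 5.46 and 5.12 RPKM for WT, next to 5.91 and 6.30 RPKM for cKO. For Pdk2 both cKO libraries were above both WT libraries, with a ratio of 1.15, and the log2 fold change was 0.17 ± 0.13 (standard error, limma, unadjusted p = 0.236, adjusted p = 0.9998). Pdk1 took 58.7% to 64.3% of the sum of Pdk1, Pdk2 and Pdk3, with Pdk3 at 19.7% to 27.4% and Pdk2 at 13.9% to 17.1%. Pdha1 and Pdhb encode the 2 chains of the E1 part of pyruvate dehydrogenase. Pdha1 was at 44.7 and 49.1 RPKM in the WT pools, against 43.3 and 52.2 RPKM in the cKO pools, and Pdhb ranged from 28.7 to 32.3 RPKM. Mpc1 and Mpc2 form the mitochondrial pyruvate carrier. Mpc1 was at 12.5 and 12.6 RPKM for WT, next to 12.4 and 14.9 RPKM for cKO, and Mpc2 ranged from 12.1 to 13.2 RPKM.

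Lactate leaves or enters cells through the monocarboxylate transporters. Slc16a1 (Mct1) was at 5.24 and 6.42 RPKM in the WT pools, against 5.48 and 8.21 RPKM in the cKO pools. Slc16a3 (Mct4), the form typical of strongly glycolytic cells, was at 3.59 and 3.63 RPKM for WT, next to 3.90 and 3.39 RPKM for cKO. Slc16a1 was above Slc16a3 in all 4 libraries and took 58.4% to 70.8% of their sum, the highest share being in cKO replicate 2.

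**Figure D3:**
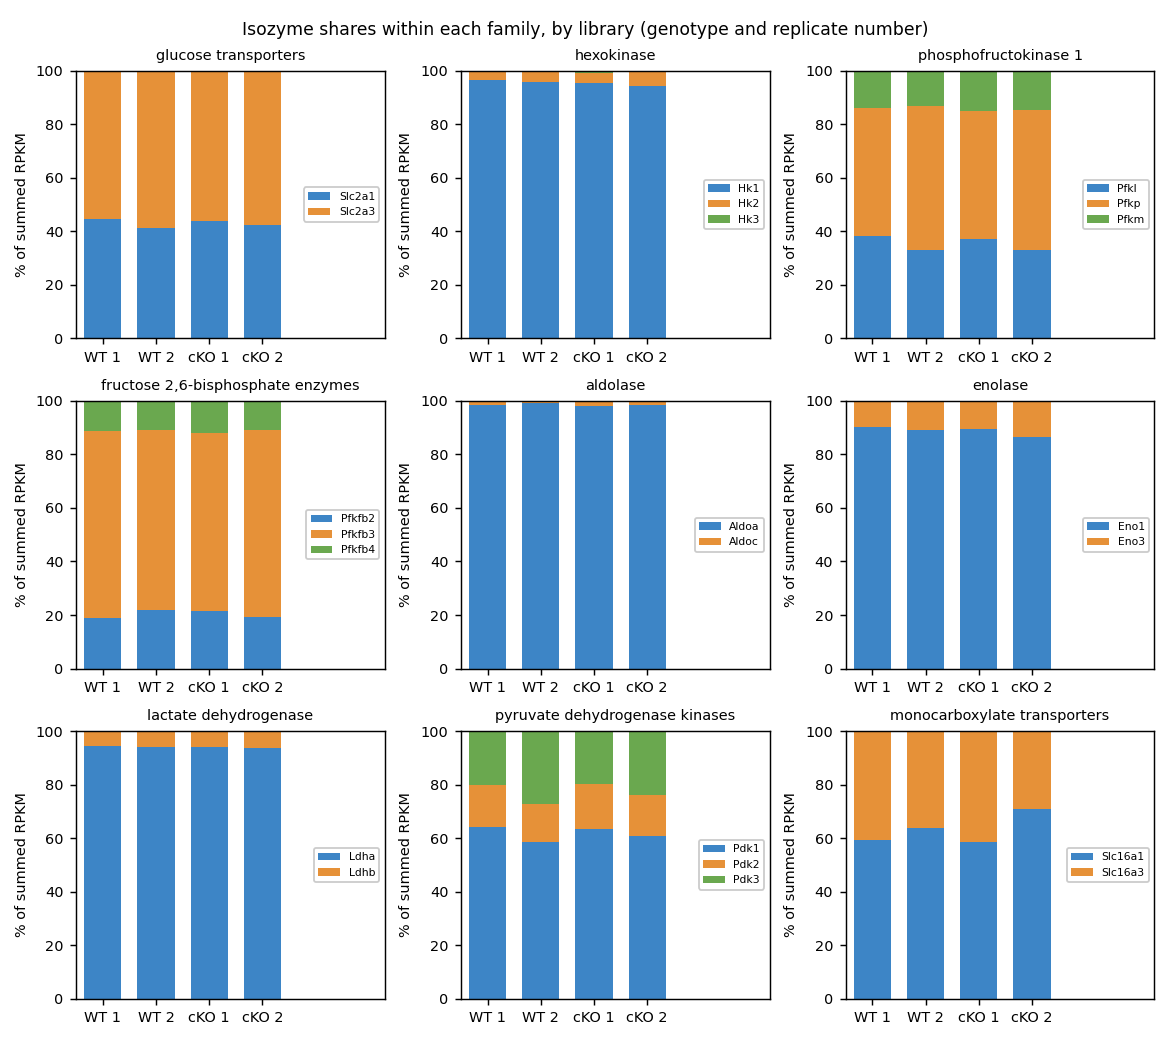
Share of each isozyme in the summed RPKM of its family (vertical, percent) in each of the 4 libraries (horizontal), in 1 panel per family, with Hk3 included in the hexokinase panel. Hk1, Aldoa, Eno1 and Ldha each take over 86% in all 4 libraries, while the glucose transporters, phosphofructokinase 1 and the monocarboxylate transporters are split between their members.

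Isozyme shares were compared over libraries, since a share does not depend on library scaling. Of 15 shares in 9 families, 4 had groups that did not overlap. The shares of Hk1 and Aldoa were lower in cKO by 1.2 and 0.648 percentage points, and those of Pfkm and Pdk2 were higher by 1.40 and 1.67 percentage points. The shares of Hk1 and Aldoa are the complements of those of Hk2 and Aldoc, and restate the higher levels of Hk2 and Aldoc. The levels of Hk1 and Aldoa themselves had cKO to WT ratios of 1.03 and 1.06. An exact two-sided permutation test over the libraries gave p = 0.333 for each of these 4 shares, which is the smallest p that 2 against 2 libraries can give. Among libraries in random order, groups of 2 and 2 separate in either direction with a probability of 0.333. That is not an exact reference for 4 of 15. Shares within a family are tied to each other, and libraries with the same number resembled each other. By level, the groups were separated with cKO higher for 17.4% and lower for 9.06% of all genes tested. Adjusted over the 15 shares, none could pass at this number of libraries.

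In the oxidative branch of the pentose phosphate pathway, G6pdx, the enzyme that makes the first NADPH (X chromosome, 74409483 to 74428880), stood at 11.05 and 11.3 RPKM in the WT pools, against 12.9 and 12.9 RPKM in the cKO pools. Both cKO libraries were above both WT libraries, with a ratio of 1.16. For G6pdx the log2 fold change was 0.19 with a standard error of 0.12 (limma, unadjusted p = 0.156, adjusted p = 0.9998), and it was 0.21 within the libraries numbered 1 and 0.18 within those numbered 2. The next enzymes did not share this pattern. Pgls, the lactonase, was at 36.5 and 32.2 RPKM for WT, next to 35.0 and 35.7 RPKM for cKO, and Pgd, which makes the second NADPH, was at 25.6 and 23.1 RPKM in the WT pools, against 25.9 and 22.8 RPKM in the cKO pools. The ratios were 1.03 for Pgls and 0.999 for Pgd.

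The non-oxidative branch rearranges sugars between the pathways. Rpia, which makes ribose 5-phosphate, was at 19.3 and 20.3 RPKM for WT, next to 20.1 and 21.2 RPKM for cKO. Rpe, the epimerase, stood at 7.77 and 11.3 RPKM in the WT pools, against 7.55 and 10.9 RPKM in the cKO pools. Among the 24 steps, Rpe had the widest range, with a highest library 1.49 times the lowest, and it followed the replicate number and not the genotype. Tkt, the transketolase, was at 49.0 and 46.7 RPKM for WT, next to 48.9 and 51.5 RPKM for cKO. Taldo1, the transaldolase, was at 74.7 and 68.4 RPKM in the WT pools, against 78.9 and 67.5 RPKM in the cKO pools.

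Ordered by level, the steps of the pathway spanned a wide range. Isozymes were summed for each step, and the lactate dehydrogenase step was highest at 229 to 250 RPKM, followed by pyruvate kinase at 172 to 210 RPKM. Enolase (127 to 157 RPKM), glucose phosphate isomerase (125 to 144 RPKM) and aldolase (128 to 139 RPKM) came next, and these 3 neighbours overlapped. The Gapdh step was clear of both neighbours at 99.4 to 113 RPKM. Transaldolase and phosphoglycerate kinase overlapped at 67.5 to 78.9 and 65.0 to 80.1 RPKM. Phosphofructokinase 1 (41.0 to 45.7 RPKM), hexokinase (40.3 to 44.5 RPKM), the glucose transporters (37.8 to 44.3 RPKM) and Pgam1 (37.6 to 44.0 RPKM) lay together with no order between them. G6pdx, at 11.05 to 12.94 RPKM, was below the 2 other enzymes of the oxidative pentose branch in all 4 libraries. The lowest steps were the monocarboxylate transporters at 8.83 to 11.6 RPKM and Rpe at 7.55 to 11.3 RPKM.

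Levels of several of these genes carry an added uncertainty because parts of their transcripts recur in transcripts of other annotated genes. Genes that overlap at the same place were not told apart from copies elsewhere in the genome. Reads were 50 bases long, and of all stretches of 50 bases in the Gapdh transcript 82.5% also occurred in another annotated gene, with 215 pseudogenes among them. The share was 72.2% for Eno1, 68.0% for Pgk1, 41.5% for Pgam1, 34.4% for Pkm, 25.3% for Gpi1 and 19.1% for Ldha. It was 0% for 17 of the 39 genes, among them Slc2a3, Hk2, Aldoc, Eno3, Pgd and Tkt. The rule for counting reads with more than 1 place in the genome (not given in the sources used here) could bear on these levels, and its part in the level of Gapdh, Eno1 or Pgk1 was not tested. The median log2 fold change over the genes sharing at most 10% of their stretches was 0.07, close to that of all 38 genes tested.

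**Figure D4:**
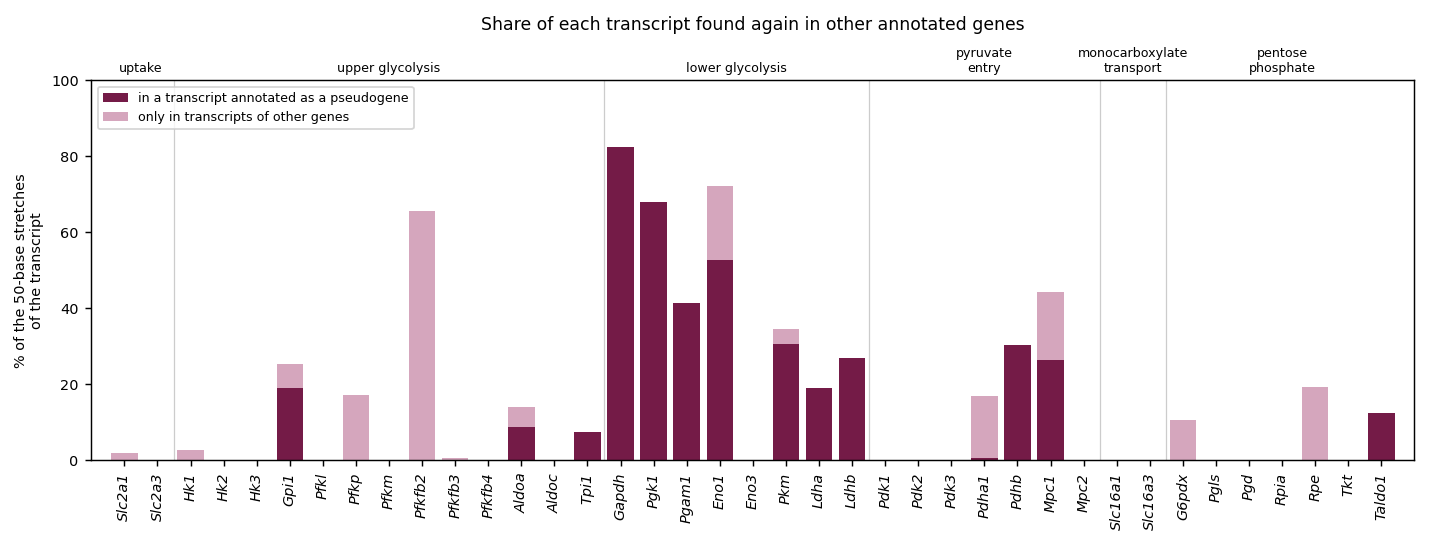
Percent of the 50-base stretches of each transcript (vertical) that also occur in transcripts of other annotated genes, in pathway order (horizontal); dark bars count stretches found in a pseudogene and light bars those found only in other kinds of gene. Gapdh (82.5%), Eno1 (72.2%) and Pgk1 (68.0%) stand highest with Pfkfb2 (65.7%), and 17 genes are at 0%.

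The replicate number, of which the labels do not say what it marks, went with differences in these genes as it did in all genes. Over the 38 genes tested, the difference between the libraries numbered 1 and 2 was larger than that between genotypes for 25 genes (65.8%), a share near the 67.5% of all genes tested. Both libraries numbered 1 lay above both numbered 2 for 13 genes (34.2%, against 28.9% of all genes tested) and below them for 10 genes (26.3%, against 32.0% of all genes tested). The 13 genes included Slc2a1, Gpi1, Pfkl, Eno1 and Pkm, and the 10 genes included Pfkp, Pgk1, Ldhb, Pdk3, Pdha1, Pdhb and Mpc1. Along this axis Rpe (-0.48), Pdk3 (-0.44), Slc16a1 (-0.38) and Aldoc (0.35) had the largest log2 differences.

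**Figure D5:**
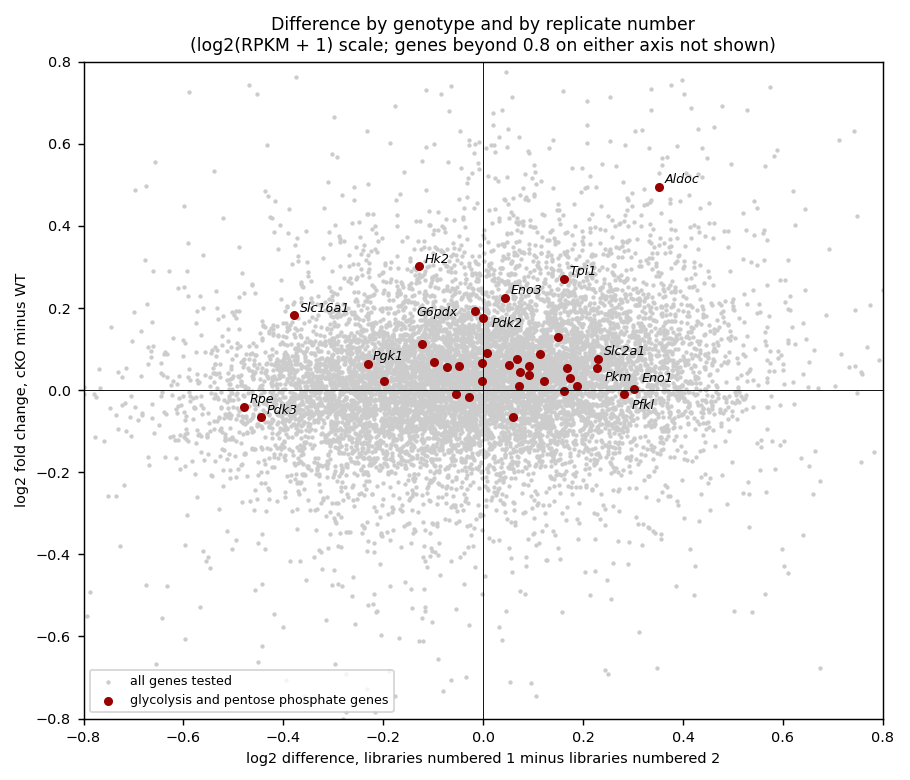
Log2 fold change of cKO minus WT (vertical) against the log2 difference of the libraries numbered 1 minus those numbered 2 (horizontal), both on the log2(RPKM + 1) scale, with the 38 genes tested in red and all genes tested in grey; genes beyond 0.8 on either axis are not shown. The red points spread more along the horizontal axis, from Rpe (-0.48) to Aldoc (0.35), than along the vertical one, from -0.07 to 0.50.

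Other genes of these pathways were read out of the same fit. From a list of other enzymes and transporters, 35 genes were tested and limma called 0, where 2 had an unadjusted p under 0.05. The median log2 fold change was 0.02 and 21 were positive, and the genotypes did not overlap for 15 genes, 10 of them higher and 5 lower in cKO, where the shares over all genes tested were 17.4% higher and 9.06% lower. With median-of-ratios scaling 17 of the 35 were positive, against 45.4% of all genes, and the median was -0.02. Eno2, the neuronal enolase, stood at 0.954 and 0.734 RPKM for WT, next to 1.64 and 1.57 RPKM for cKO (limma, unadjusted p = 0.0151, adjusted p = 0.9998). Slc25a1, the mitochondrial citrate carrier, was at 11.6 and 10.1 RPKM in the WT pools, against 15.7 and 14.4 RPKM in the cKO pools (limma, unadjusted p = 0.0181, adjusted p = 0.9998). Pgm2l1, which makes glucose 1,6-bisphosphate, was at 3.10 and 4.07 RPKM for WT, next to 2.36 and 2.69 RPKM for cKO. For Eno2 and Slc25a1 both cKO libraries were above both WT libraries, and for Pgm2l1 both were below.

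Among regulators of glycolysis, limma called 0 of the 27 tested. Of these, 2 had an unadjusted p under 0.05. The log2 fold change was positive for 10 genes and its median was -0.04, and the genotypes did not overlap for 5 genes lower and 1 gene higher in cKO (9.06% lower and 17.4% higher over all genes tested). With median-of-ratios scaling 4 of the 27 were positive, against 45.4% of all genes, and the median was -0.08. Txnip, which limits glucose uptake and rises with glucose, was the most abundant named one at 262 and 244 RPKM in the WT pools, against 202 and 191 RPKM in the cKO pools, a ratio of 0.776 (limma, unadjusted p = 0.0286, adjusted p = 0.9998). Mlxip, which encodes the glucose-sensing factor MondoA that drives Txnip, was at 38.1 and 29.6 RPKM for WT, next to 24.2 and 22.8 RPKM for cKO, a ratio of 0.694 (limma, unadjusted p = 0.0203, adjusted p = 0.9998). Egln3, a prolyl hydroxylase that marks hypoxia-inducible factor for removal, was at 1.65 and 1.33 RPKM in the WT pools, against 2.02 and 1.67 RPKM in the cKO pools.

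In the hypoxia response list, limma called 0 of 22 genes tested, and 2 had an unadjusted p under 0.05. The log2 fold change was positive for 12 genes with a median of 0.01, and the genotypes did not overlap for 4 genes higher and 4 lower in cKO, next to 17.4% and 9.06% of all genes tested. With median-of-ratios scaling 6 of the 22 were positive, against 45.4% of all genes, and the median was -0.04. P4ha1, a collagen prolyl hydroxylase, stood at 16.3 and 28.2 RPKM for WT, next to 12.5 and 14.0 RPKM for cKO, WT replicate 2 being the high library. Anxa2, an annexin, was at 11.2 and 10.5 RPKM in the WT pools, against 15.3 and 15.3 RPKM in the cKO pools (limma, unadjusted p = 0.00876, adjusted p = 0.9998). Gys1, the glycogen synthase of muscle and most other tissues, was at 4.39 and 3.99 RPKM for WT, next to 5.002 and 5.11 RPKM for cKO.

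Markers of dividing cells were measured beside these values. All 21 of the genes tested on that list had positive log2 fold changes (59.2% over all genes), with a median of 0.26, and for 10 of them the cKO values both exceeded the WT values (17.4% over all genes). With median-of-ratios scaling 18 of the 21 were positive, against 45.4% of all genes, and the median was 0.22. Limma called 0, and 3 had an unadjusted p under 0.05. Their summed level was 271 and 265 RPKM in the WT pools, against 289 and 305 RPKM in the cKO pools. The part of dividing cells in the values of Hk2, Aldoc, Tpi1, Eno3 and G6pdx was not tested.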

How the data were processed

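RNA-seq was measured in 4 libraries, 2 WT and 2 Nsd2 cKO, grouped and numbered by the labels. The authors deposited RPKM values for 19291 RefSeq transcripts; the files name no unit, and it was read from the values. Per the submitters' processing notes HISAT2, DESeq2 and the mm10 build were used, with no version or role. The counting tool, the handling of strand and of reads with several places, and any filter on rows remain unknown (not given in the sources used here). From 66.6% to 68.1% of low values lay within 0.1 of a whole read at the estimated depth, where the median over other depths was 16.9% to 18.8%. At that depth the low genes are limited by counting.

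Rows were matched to genes by accession (16720) or name (1402) with a RefSeq table of GRCm38.p6, which is the mm10 assembly. The 1169 rows without a gene name, 10.9% of the RPKM sum, were left out. Each gene took its row of highest mean. Genes averaging 1 RPKM or more were tested with limma 3.58.1 (R 4.3.3, trend and robust) on log2(RPKM + 1), two-sided, genotype only, with Benjamini-Hochberg adjustment over all genes at 0.05. Shared stretches were counted as exact matches of 50 bases, on either strand, in GENCODE M21 transcripts. Values in every library are given for the leading gene of each step, isozymes above 10% of their family, the 8 genes of lowest p, and genes with separated groups and means at least 1.2-fold apart. From other lists the 3 tested genes of lowest p, or the 2 marker genes of highest mean, were taken, and only markers that touch a result were printed. Some further genes of these lists, among them Cd8b1, Prf1, Arrdc4 and Mlx, were named outside this rule. The genes and lists were chosen with earlier results of these data known. The fit was tested on simulated data. Alternatives were another pseudocount, scaling, filters, summed rows, a replicate block and each library left out. The direction of the other gene lists under median-of-ratios scaling was computed after seeing the data.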

Additional observations from a re-analysis of the deposited data

How the results depend on the processing

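With another pseudocount, another filter, median-of-ratios scaling or summed transcript rows, limma called 0 of these genes and 0 of all genes. With WT replicate 1 left out limma called 69 of all genes, with WT replicate 2 left out 38, with cKO replicate 1 left out 33 and with cKO replicate 2 left out 53, and 0 of these genes each time, in fits where the lone library of a group is assumed to vary like the other group. With the replicate block, 1 of all genes and 0 of these genes were called, and the lowest adjusted p among them was 0.208 (limma, Aldoc), with 5 of these genes and 1638 of all 10688 genes at an unadjusted p under 0.05. The labels tie the numbers to no batch. The deviations of the libraries numbered 1 from their group means had a correlation between genotypes of 0.51 over all genes and 0.79 over these genes, which are not independent replicates. The count of genes above both WT libraries was 15 to 22 with 1 library left out, where 32.6% to 40.4% of all genes were, since fewer libraries separate more easily. The count below was 3 with median-of-ratios scaling, 0 with summed rows and 4 to 6 with 1 library left out, where the shares of all genes were 13.8%, 9.12% and 22.8% to 31.7%. Isozyme shares with separated groups numbered 2 at a mean of at least 4 RPKM and 8 to 11 with 1 library left out, where fewer libraries again separate more easily. The median log2 fold change was 0.012 with median-of-ratios scaling, 0.0314 to 0.1004 with 1 library left out, and 0.0668 over the genes sharing few stretches, a subset chosen after seeing the data. Of 35 genes given in full, 14 kept their sign in every setting. With median-of-ratios scaling the log2 fold change turned to -0.0094 for Hk1, -0.0375 for Gpi1, -0.0243 for Gapdh, -0.0436 for Eno1, -0.0251 for Pdha1, -0.0278 for Slc16a3, -0.0023 for Pgls and -0.0174 for Taldo1, and with summed rows to -0.0043 for Slc16a3. With 1 library left out, log2 fold changes that changed sign ran over these ranges: Slc2a1 -0.0638 to 0.2172, Hk1 -0.0169 to 0.0904, Gpi1 -0.0966 to 0.1155, Pfkl -0.1803 to 0.16, Pfkp -0.0401 to 0.0066, Pfkfb2 -0.0426 to 0.1653, Gapdh -0.0703 to 0.1154, Pgk1 -0.07 to 0.1996, Pgam1 -0.0448 to 0.1519, Eno1 -0.149 to 0.1556, Pkm -0.077 to 0.1831, Pdk1 -0.0242 to 0.1419, Pdk3 -0.2923 to 0.1594, Pdha1 -0.1108 to 0.1533, Mpc1 -0.0111 to 0.2339, Slc16a1 -0.0718 to 0.4367, Slc16a3 -0.0706 to 0.0886, Pgls -0.0436 to 0.1309, Pgd -0.0917 to 0.0861, Rpe -0.2816 to 0.2008, Taldo1 -0.0822 to 0.1406. The cause was not tested.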

Other observations

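Other marker lists were measured beside the pathway genes. Of 4 B cell genes tested, all 4 log2 fold changes were positive (59.2% over all genes) with a median of 0.27. For all 4 genes the cKO values both exceeded the WT values, where 17.4% of all genes did, and Cd79b, part of the B cell receptor, stood at 5.56 and 4.23 RPKM for WT, next to 8.03 and 7.14 RPKM for cKO (limma, unadjusted p = 0.0172, adjusted p = 0.9998). Of 5 genes of CD8 T and NK cells tested, 3 were above 0, and Nkg7, a granule protein, was at 12.7 and 7.96 RPKM in the WT pools, against 11.6 and 12.4 RPKM in the cKO pools. Ccl5, a chemokine of the same list, was at 7.22 and 4.71 RPKM for WT, next to 8.41 and 11.8 RPKM for cKO, a ratio of 1.70 (limma, unadjusted p = 0.0308, adjusted p = 0.9998). Cd8b1 and Prf1 of this list went the other way. Cd8b1 was at 6.91 and 6.49 RPKM in the WT pools, against 5.22 and 6.31 RPKM in the cKO pools, without overlap. Prf1 was at 4.12 and 5.80 RPKM for WT, next to 4.23 and 3.66 RPKM for cKO, with overlap and a ratio of 0.796. Among 12 neutrophil genes 1 was tested, Cxcr2, at 1.92 and 2.80 RPKM for WT, next to 1.81 and 2.24 RPKM for cKO. Hba-a1, an alpha globin gene, was at 9.63 and 3.92 RPKM in the WT pools, against 18.1 and 2.78 RPKM in the cKO pools. No gene of these 4 lists was called by limma, where 2 of the genes tested, Cd79b and Ccl5, had an unadjusted p under 0.05. The squared difference between libraries relative to counting noise was taken over 8136 to 8143 of the genes tested. These had a known transcript length and not too few reads in the pair. Its median was 1.53 between WT replicate 1 and cKO replicate 1 and 2.46 between WT replicate 2 and cKO replicate 2. Within WT the median was 4.64 and within cKO 6.02.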
